A study of Mus musculus with 9 samples.

Results

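Effector CD8+ T cells recovered from mice with graft-versus-host disease were compared here with resting naive CD8+ T cells, gene by gene, on Affymetrix Mouse430A 2.0 arrays. The comparison used the 3 effector and the 3 naive arrays of a series of 9, and every non-control probe set that names a single gene, which is 21259 of the 22690 probe sets in the table. Each of 13152 genes was represented by its brightest probe set over all arrays. Effector cells, which the labels call effector memory T cells, were CD44-high CD62L-low CD8+ T cells sorted on day 14 from 4 pooled male B6/SJL recipients per preparation. Those recipients had been irradiated with 10 Gy and given female C3H.SW naive-phenotype CD8+ T cells together with T cell-depleted bone marrow to induce disease. Naive cells were CD44-low CD62L-high CD8+ T cells pooled from 2 normal female C3H.SW mice per preparation and were never transplanted. Transfer, the irradiated host, the alloantigen response and the sort gate therefore differ together between the groups and cannot be told apart. The remaining 3 arrays hold postmitotic cells, CD44-low CD62L-high cells of the same kind of recipients, and entered only the estimate of each gene's spread. Each preparation is a pool of mice, and no gene was deleted or added in any group.

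A naive CD8+ T cell circulates through lymphoid organs in a resting state until its antigen receptor meets antigen with costimulation. It then enlarges, divides many times and differentiates into an effector cell, which leaves the lymph node, enters tissue, secretes cytokines and kills targets by releasing perforin and granzymes at the contact site. In graft-versus-host disease the targets are tissues of the recipient, which carry histocompatibility antigens foreign to the donor T cells.

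The values are log2 signals after the authors' quantile normalization. A value of 6.64 corresponds to zero signal and 5.64 is the lowest the formula allows, so the offset shrinks the differences of dim genes while values below zero signal can widen them. Calls of 2-fold or more came to 875 higher and 698 lower with the offset taken off, and to 710 and 476 with values under zero signal raised to it, beside 748 and 503 as deposited. A change in total RNA per cell leaves no trace. A sort marker followed its gate. Cd44, a hyaluronan receptor, read 7.59, 6.94 and 7.30 in naive and 10.89, 11.28 and 11.17 in effector preparations. All 10 measured CD8 T cell markers were clearly above zero signal, and Cd8b1 lay between 10.84 and 11.24 on the 6 arrays. Of the markers of other cells, 3 of 18 myeloid genes (Cd68, Cebpb, Ly86) and 3 of 8 dendritic and class II genes (H2-Aa, H2-Ab1, Itgax) were called higher in effector cells, and Cd14 of the myeloid list was called lower, at 6.93 to 7.19 in naive and 5.85 to 6.39 in effector cells. The lists' summed signal lay between 3220 and 4180 against 4300 and 8980 for the myeloid list, and between 1020 and 1400 against 4070 and 4680 for the class II list. The B cell list had 2 of 10 genes called higher and 1 lower, Cd79b at 8.91 to 9.07 in naive and 7.66 to 8.02 in effector cells, and a summed signal of 854 to 992 in naive and 927 to 1140 in effector cells. The NK list had Eomes and Nkg7 called higher of 6, with sums of 17100 to 17600 against 47600 to 51100, and Ncr1 and Klrb1c were near zero signal. Of 5 immature thymocyte markers Dntt and Cd1d1 were lower, with sums of 5780 to 6230 against 2680 to 3270, and of 5 CD4 and regulatory T cell markers Foxp3 was higher, with sums of 376 to 514 against 518 to 546. Of 11 erythroid and megakaryocytic markers Hbb-b1 and Itga2b were lower and 0 higher, with sums of 1010 to 1310 against 908 to 1250. A sum follows its brightest members and need not reflect the whole list. Csf1r, the brightest myeloid gene and not called, read 10.86 to 11.39 in naive and 10.85 to 12.40 in effector cells. Only 2 NK genes and 1 thymocyte gene had effector means more than 1 log2 unit above zero signal. The list of Y-linked genes had no call, but effector replicate 3 carried Eif2s3y at 9.50, Ddx3y at 8.25 and Kdm5d at 7.73, genes that cells of the female T cell donors lack. With Xist added, the list's median deviation from the naive means was 0.67 on that array, and -0.14 and -0.31 in effector replicates 1 and 2. It was 1.63 in postmitotic replicate 3, an array that entered the spread. The 3′ minus 5′ differences of the control probe sets also moved with the group, from 1.28 to 1.87 in naive and 0.78 to 0.97 in effector arrays for actin, and from 0.38 to 0.54 against 1.28 to 1.94 for the transferrin receptor. Whether the signals of the marker lists other than the Y-linked genes came from other cells was not tested. The part of other cells and of RNA quality in the results below was not tested either.

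Of the 13152 genes, 1905 (14.5%) were higher and 2147 (16.3%) were lower in effector than in naive cells at an adjusted p under 0.05 in limma, 30.8% in all. Each list count below is to be read beside these shares. A gene is said to have risen or fallen only where it passed this threshold, and differences are effector minus naive on the log2 scale. The 3 effector arrays lay wholly above the naive ones for 20.4% of genes and wholly below for 24.7%, 45.1% together, and 4045 of the 4052 called genes were among them. The falls were more numerous, but the large changes were rises. At 2-fold or more, 748 called genes were higher and 503 lower, at 8-fold or more 122 and 25, and at 32-fold or more 23 and 1. The median called rise was 0.82 and the median called fall -0.68 on the log2 scale, beside a median difference of -0.06 over all genes. Of the called rises, 152 started from a naive mean below zero signal, where the measured difference is approximate. Among the 1316 genes with the highest mean level, the directions were nearly balanced, with 352 higher and 368 lower. Requiring the fold itself to exceed 1.5 left 616 higher and 421 lower, and the smaller calls named below, such as Bax, Bcl2l11, Rps27l, Psmb3, Tnfsf4, Tnfsf10 and most of the Gbp and Irg genes, did not pass that stricter test. Without effector replicate 3 the calls came to 1485 and 1648.

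**Figure D1:**
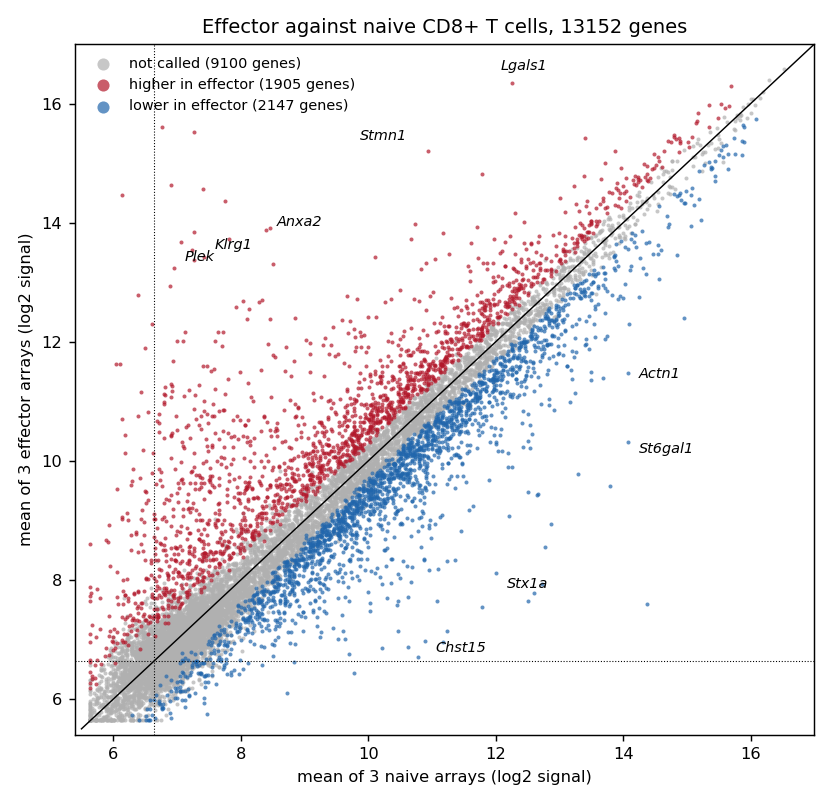
Mean log2 signal of the 3 naive arrays (horizontal) against the 3 effector arrays (vertical) for 13152 genes. Red points mark the 1905 genes called higher in effector cells, blue points the 2147 called lower and grey points the 9100 not called by limma at an adjusted p under 0.05. Dotted lines mark zero signal at 6.64, and the points farthest from the diagonal lie mostly above it.

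The genes that rose most went from dim to bright. Plek, which encodes pleckstrin, a protein kinase C substrate of blood cells, read 6.79, 6.71 and 7.34 in the naive and 13.15, 13.31 and 13.25 in the effector preparations. The difference was 6.29 ± 0.186 (SE, n = 3 per group; adjusted p = 4.19e-07), and its size is approximate because the naive values are close to zero signal. Klrg1, an inhibitory lectin-like receptor known from short-lived effector cells, read 7.24, 7.42 and 7.61 in naive and 13.45, 13.41 and 13.44 in effector cells. It rose by 6.01 ± 0.117 (SE; adjusted p = 8.55e-08), with almost no spread among the effector arrays. Naive cells gave 7.78, 7.11 and 6.88 for Ccl4, an inflammatory chemokine, and effector cells 13.42, 13.22 and 13.49, a rise of 6.12 (adjusted p = 1.78e-06). Serpine2, a serine protease inhibitor, rose by 5.68 and Ccl3 by 5.39, both from a naive mean below zero signal. Ctla2a, which resembles the propeptide of a cysteine protease, rose by 5.45 and Anxa2, a calcium-dependent phospholipid-binding annexin, by 5.48. All of these genes separated the groups without overlap. Not all large changes started at background. Lgals1, the glycan-binding galectin-1, was already bright in naive cells at 12.40, 12.20 and 12.16 and reached 16.38, 16.32 and 16.36, a rise of 4.10 (adjusted p = 4.93e-07).

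Genes of varied function were among the largest falls. Chst15, which sulfates chondroitin chains, read 10.89, 10.80 and 10.98 in naive cells and 7.10, 6.85 and 6.99 in effector cells, a difference of -3.91 (adjusted p = 2.51e-07). Stx1a, a membrane fusion protein best known from neuronal synapses, went from 12.04, 11.94 and 12.01 to 8.14, 8.13 and 8.06, a difference of -3.89 (adjusted p = 8.55e-08). The ligand gene Wnt5b fell by 3.74 on the log2 scale and Rgs10, which switches off G protein signals, by 3.12 (from 12.13, 12.28 and 12.19 to 9.02, 9.24 and 8.99). Further falls included Sh3bp5 (-3.52), Mtss1, which links membranes to actin (-3.44), Rapgef4, a cAMP-activated exchange factor for Rap (-3.36), Atp1b1, a subunit of the sodium pump (-3.22), and the pseudokinase gene Trib2 (-3.03). Cnr2, a cannabinoid receptor, fell from 9.75, 9.87 and 9.72 to 5.64, 6.88 and 6.78, so its effector mean was below zero signal and the difference of -3.35 is approximate. In each of these genes all effector arrays lay below all naive arrays.

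**Figure D2:**
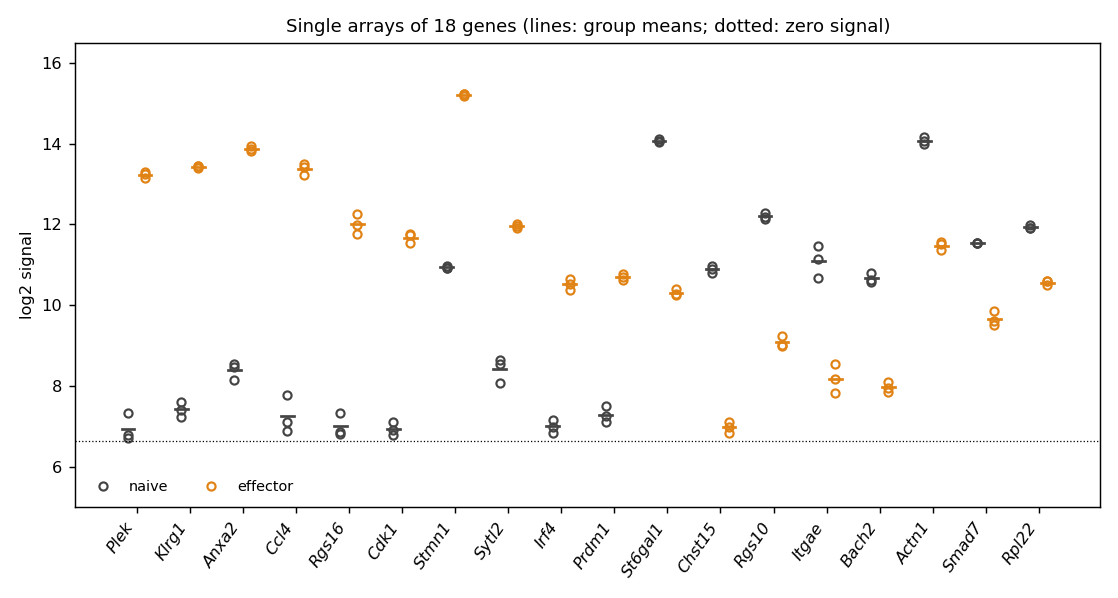
Log2 signal of 18 genes on each array, with naive and effector arrays in separate colours and a short line at each group mean. For every gene the 3 effector points and the 3 naive points do not overlap, with rises such as Plek (6.79, 6.71 and 7.34 to 13.15, 13.31 and 13.25) and falls such as St6gal1 (14.11, 14.05 and 14.06 to 10.40, 10.26 and 10.27).

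Most genes of cell division rose. Of 71 measured genes of mitosis and cytokinesis, 63 (88.7%) were higher and 0 lower, with a median difference of 2.67, beside 14.5% higher among all genes. Of 55 DNA replication genes, 48 (87.3%) were higher and 2 lower, with a median of 1.35. Leaving out any of the 9 arrays in turn gave 61 to 63 and 43 to 48 rises. Cdk1, the kinase that drives entry into mitosis, read 6.79, 6.91 and 7.11 in naive cells and 11.76, 11.54 and 11.73 in effector cells, a rise of 4.74 (adjusted p = 1.93e-06). Its partner cyclin Ccnb2 read 7.22, 7.15 and 6.94 against 12.03, 11.92 and 12.07, a rise of 4.90. Stmn1, a microtubule destabiliser, was bright in both states and still rose by 4.27, from 10.96, 10.93 and 10.93 to 15.24, 15.17 and 15.22. The motor gene Kif20a was at or below zero signal on all naive arrays and was at least 3.55-fold higher in effector cells. Cdc6, which loads the replicative helicase onto origins, read 7.30, 5.86 and 7.28 against 11.18, 11.34 and 11.21, a rise of 4.43 ± 0.362 (SE; adjusted p = 4.71e-05). Uhrf1, which carries DNA methylation through replication, rose by 3.21, Gins1 of the helicase complex by 3.14 and Lig1, the ligase of lagging-strand fragments, by 2.52.

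The exceptions were few and can be listed. The mitotic genes not called were Cenpp, Cenpq, Ckap5, Foxm1 (0.20), Ndc80, Racgap1 (-0.04), Smc4 and Tubb5 (0.21), and the replication genes not called were Cdt1 (-0.03), Orc3, Orc4, Pole2 and Rnaseh2c. The 2 replication genes called lower were origin recognition subunits, Orc5 (-0.47) and Orc2 (-0.38), named after their values were seen. Only 1 of them was lower when effector replicate 1, effector replicate 3, naive replicate 2 or naive replicate 3 was left out. Pooled RNA does not tell whether more cells were dividing or each dividing cell held more of these transcripts, so the 2 cannot be told apart, here and for any gene below that marks some of the cells.

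The promoters of both lists differ in how often they hold letters that cell cycle regulators are known to bind, and 6 are shown for that reason. Genes of DNA synthesis are typically regulated by E2F factors, and genes of mitosis by complexes that recognise a cell cycle homology region (CHR) together with CCAAT boxes. The windows run from 250 bases before to 50 bases after the RefSeq start on GRCm38.p6, 5′ to 3′ on the gene's strand. They belong to the 3 genes of each list called higher, with the largest rise, whose window holds the motif. Genes of a single chromosome, which none of the windows shown come from, were left out of this choice. In the first 3 the capitals mark an E2F motif (TTTGGCGC, TTTCCCGC, TTTCGCGC or TTTGCCGC on either strand), and in the others CCAAT boxes (CCAAT) and CHR elements (TTTGAA) on either strand. Each window is marked for the motifs of its own list only, so letters of the other kind can stay in lower case. The Uhrf1 window holds unmarked CCAAT boxes, and the Cdk1 window holds an unmarked TTTCGCGC. Cdc6 lies at chr11:98907901-98908200 (plus strand), Uhrf1 at chr17:56304063-56304362 (plus), Lig1 at chr7:13278576-13278875 (plus), Ccnb2 at chr9:70421505-70421804 (minus), Cdk1 at chr10:69352863-69353162 (minus) and Top2a at chr11:99024140-99024439 (minus).
Cdc6: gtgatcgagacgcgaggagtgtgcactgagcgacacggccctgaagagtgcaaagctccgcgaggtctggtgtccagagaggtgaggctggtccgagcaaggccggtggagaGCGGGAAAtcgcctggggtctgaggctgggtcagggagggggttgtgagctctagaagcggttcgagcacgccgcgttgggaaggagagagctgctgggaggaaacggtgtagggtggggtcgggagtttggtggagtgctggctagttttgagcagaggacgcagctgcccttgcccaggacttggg
Uhrf1: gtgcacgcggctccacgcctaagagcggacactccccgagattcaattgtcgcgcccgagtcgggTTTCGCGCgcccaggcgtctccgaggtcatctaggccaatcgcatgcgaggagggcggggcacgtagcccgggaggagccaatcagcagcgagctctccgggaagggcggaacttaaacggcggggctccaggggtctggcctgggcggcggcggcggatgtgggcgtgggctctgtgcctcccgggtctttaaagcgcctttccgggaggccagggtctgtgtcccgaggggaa
Lig1: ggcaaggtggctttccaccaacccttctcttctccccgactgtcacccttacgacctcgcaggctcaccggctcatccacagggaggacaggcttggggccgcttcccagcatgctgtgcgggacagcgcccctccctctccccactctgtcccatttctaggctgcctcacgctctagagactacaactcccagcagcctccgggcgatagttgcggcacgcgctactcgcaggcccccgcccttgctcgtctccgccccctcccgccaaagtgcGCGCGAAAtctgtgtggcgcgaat
Ccnb2: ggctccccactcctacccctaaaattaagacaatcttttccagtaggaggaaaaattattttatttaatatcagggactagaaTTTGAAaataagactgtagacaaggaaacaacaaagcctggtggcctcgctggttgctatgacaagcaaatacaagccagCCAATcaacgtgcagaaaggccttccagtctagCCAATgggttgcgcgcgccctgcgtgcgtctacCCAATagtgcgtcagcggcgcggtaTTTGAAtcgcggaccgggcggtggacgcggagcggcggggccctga
Cdk1: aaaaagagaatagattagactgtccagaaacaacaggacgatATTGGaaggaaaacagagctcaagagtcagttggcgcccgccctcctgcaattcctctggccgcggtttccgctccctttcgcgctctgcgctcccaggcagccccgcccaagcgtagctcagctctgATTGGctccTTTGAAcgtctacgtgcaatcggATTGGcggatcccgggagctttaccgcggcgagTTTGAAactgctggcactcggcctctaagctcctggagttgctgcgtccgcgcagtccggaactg
Top2a: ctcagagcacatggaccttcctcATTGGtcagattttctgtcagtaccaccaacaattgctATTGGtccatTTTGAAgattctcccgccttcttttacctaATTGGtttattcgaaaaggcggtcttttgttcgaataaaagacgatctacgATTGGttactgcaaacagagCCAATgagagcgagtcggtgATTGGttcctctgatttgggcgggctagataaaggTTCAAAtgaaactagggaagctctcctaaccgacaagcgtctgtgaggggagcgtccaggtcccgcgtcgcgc

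The windows of Cdc6, Uhrf1 and Lig1 hold 1 marked motif each, and those of Ccnb2, Cdk1 and Top2a hold 5, 5 and 8. Over the lists, 47 of 55 replication genes had 59 promoters in the table, of which 17 (28.8%) held an E2F motif and 4 (6.78%) held both a CCAAT box and a CHR. For the mitotic genes the shares ran the other way: of 65 promoters of 60 of 71 genes, 6 (9.23%) held an E2F motif and 33 (50.8%) held both other elements. Among all 32851 promoters of the same length the shares were 2.26% and 6.95%, and among the 12792 promoters of genes tested 3.32% and 5.11%. A CCAAT box, with or without a CHR, stood in 50.8% of replication and 72.3% of mitotic promoters, beside 37.2% among genes tested. DNA repair promoters held the E2F motif in 18% of 50 and both other elements in 2%, while ribosomal protein promoters held them in 2.94% and 0% of 68. These are matches of letters and not binding sites, and all measured members entered the counts whatever their change.

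Around this core, the genes that start or restrain division moved both ways. E2f1 rose by 2.56 and E2f8, a repressor of the same family, by 3.38 (from 7.69, 7.74 and 7.29 to 11.03, 10.89 and 10.93). Ccne1, a cyclin of S phase entry, rose by 2.41. In contrast Ccnd2, a cyclin D that responds to growth signals, was lower in effector cells, at 12.74, 12.75 and 12.80 against 13.88, 14.05 and 13.94, a difference of -1.19 (adjusted p = 3.42e-05). Of 36 inhibitors and quiescence genes, 18 were lower and 10 higher, with a median of -0.41. The inhibitor Cdkn2c was among the rises (2.65). Repair genes divided into 21 higher and 11 lower of 58, and among the rises was Chek1, a checkpoint kinase, which went from 7.77, 7.55 and 7.92 to 11.17, 11.11 and 11.08 (3.37, adjusted p = 2.41e-05), with Brca1 at 2.55. Of 17 histone genes 10 rose and 1 fell, and the fall was lost without naive replicate 2 or 3, without any effector array, and with only the 6 arrays of the comparison fitted. In addition, many histone genes have near-identical copies that a probe set may not separate. Enzymes of purine and pyrimidine synthesis were higher for 18 and lower for 8 of 35, and without effector replicate 3 the rises came to 13.

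**Figure D3:**
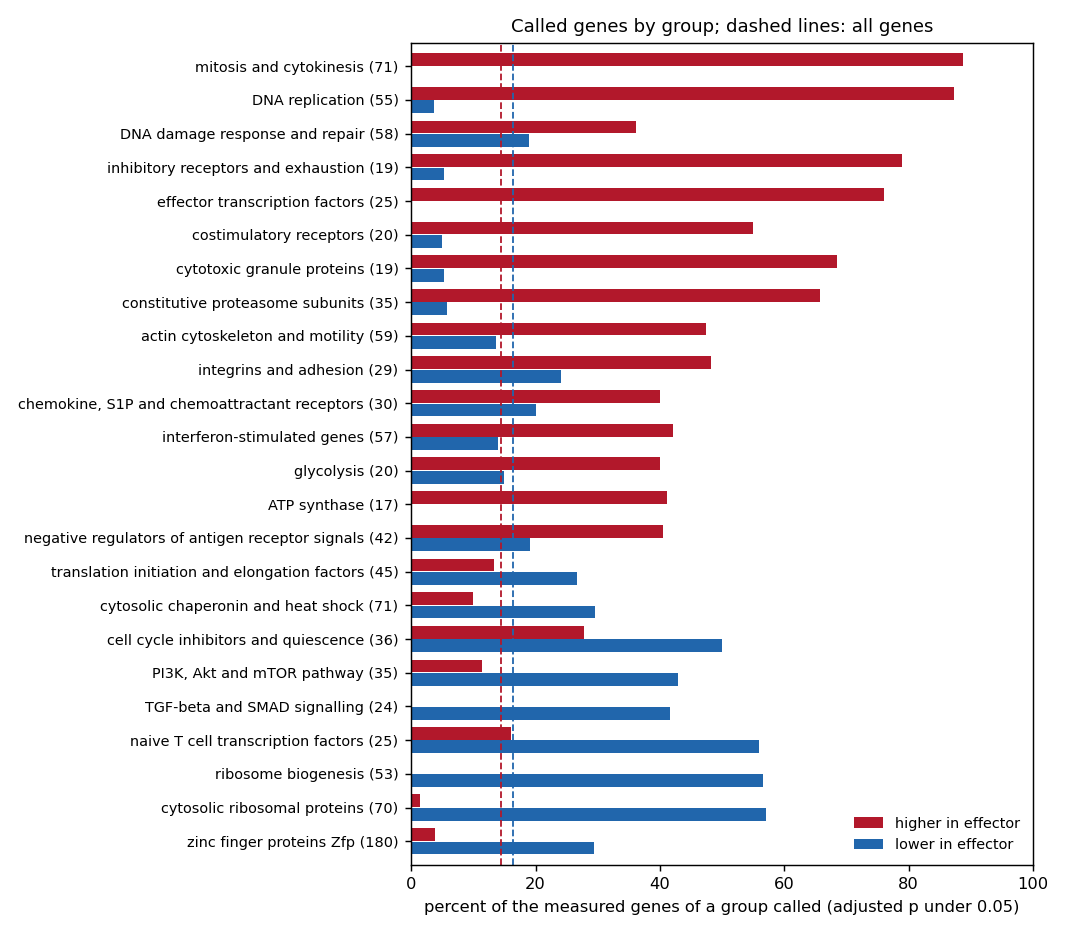
Share of the measured members of 24 gene lists called higher (red, upper bar) and lower (blue, lower bar) in effector cells. Dashed lines mark the shares over all 13152 genes, 14.5% higher and 16.3% lower. Mitosis and DNA replication reach 88.7% and 87.3% higher, and cytosolic ribosomal proteins 57.1% lower.

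Genes of the ribosome were lower in the same cells. Of 70 cytosolic ribosomal proteins, 40 (57.1%) were lower and 1 was higher, with a median of -0.32, beside 16.3% lower among all genes. Ribosome biogenesis genes, which process ribosomal RNA in the nucleolus, were lower for 30 (56.6%) and higher for 0 of 53, with a median of -0.37. The medians stayed negative with each array's median subtracted (-0.35 and -0.39) and with the offset removed (-0.33 and -0.40). Most of these falls were under 2-fold, with 6 of 40 and 1 of 30 at 2-fold or more. Rps15 read 15.15, 14.56 and 14.82 in naive and 13.39, 13.57 and 13.38 in effector cells, a difference of -1.39 (adjusted p = 0.000213). Rpl22, which in mice restrains its own paralog, read 11.91, 11.99 and 11.91 against 10.49, 10.59 and 10.60, a difference of -1.37 (adjusted p = 9.09e-06). Rpl36a fell by 1.26 and Rps24 by 1.18, and Utp20 of the small subunit processome by 1.21. The single riser was Rps27l, a p53-responsive relative of Rps27, at 1.02. Ribosomal proteins have many processed pseudogenes with near-identical sequence, so these values may hold signal of copies. Translation factors leaned the same way, with 12 (26.7%) lower and 6 (13.3%) higher of 45, beside 16.3% and 14.5% among all genes. The authors' criteria (unadjusted p under 0.01 and 1.5-fold) gave 4 lower and 3 higher. Testing the fold against 1.5 left 1 lower and 1 higher. The falls included Eef2k, the kinase that slows elongation (-1.21), and the helicase Eif4a2 (-0.95). Ribosomal proteins of the mitochondria did not share the lean towards falls, with 14 higher and 12 lower of 76 and a median of -0.01. Without effector replicate 3 these counts were 9 and 8.

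Protein breakdown and folding genes also parted. Of 35 constitutive proteasome subunits 23 (65.7%) were higher, with a median of 0.47, and Psmb3 (1.09) and Psmb7 (1.08) led them. The 2 lower subunits were Psmd5 and Psmd11, named after their values were seen, and 1 of them was lost when any effector array or naive replicate 2 was left out. Chaperonin and heat shock genes instead held 21 lower and 7 higher of 71. Dnaja1, a cochaperone of Hsp70, went from 13.92, 14.28 and 14.05 to 12.28, 12.30 and 12.30, a difference of -1.79, and the chaperones Dnajb2 (-1.98), Hsph1 (-1.67) and the inducible Hsp70 gene Hspa1b (-1.41) fell with it. Hspa2, a testis-rich Hsp70, was among the rises at 1.23. Of 51 genes of entry into the secretory pathway and folding in the endoplasmic reticulum 11 rose and 3 fell, and the rises included Sdf2l1 (1.52) and the prolyl isomerase Fkbp2 (1.35). The rises numbered 18 with the offset taken off and 19 with low values raised or with a trended robust prior.

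**Figure D4:**
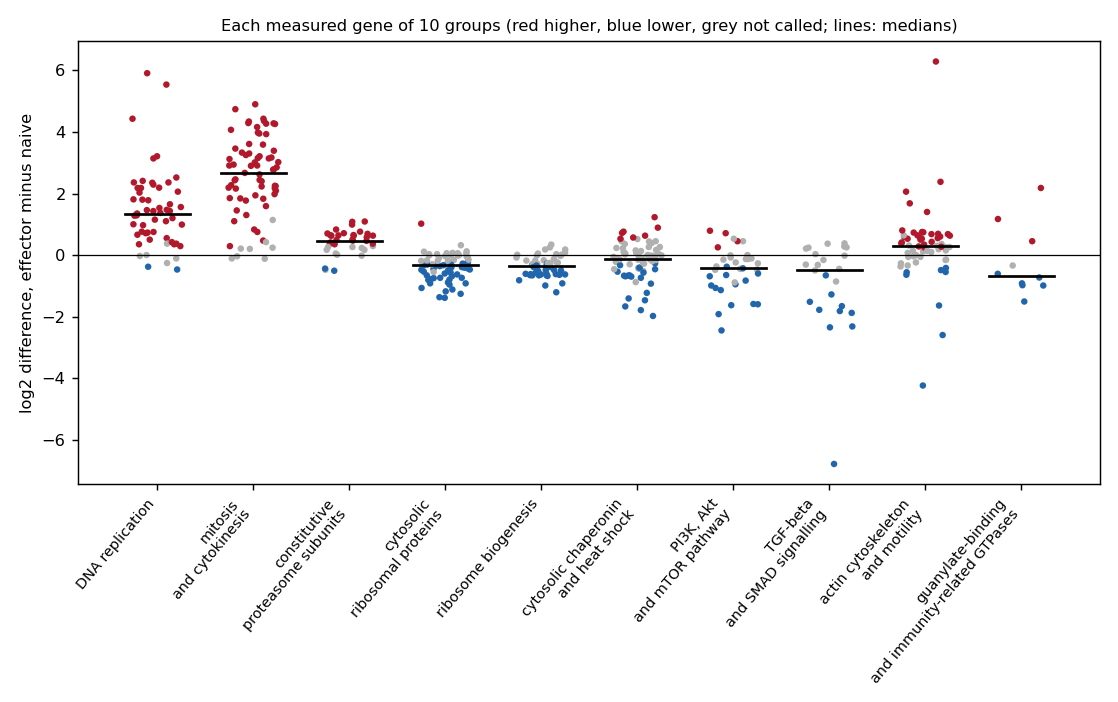
Log2 difference, effector minus naive, of each measured member of 10 gene lists. Each point is 1 gene, coloured by its call, and black lines are list medians, such as 2.67 for mitosis, 0.47 for proteasome subunits, -0.32 for cytosolic ribosomal proteins and -0.37 for ribosome biogenesis.

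The killing machinery rose at several steps. Of 19 granule proteins 13 (68.4%) were higher and 1, Lamp1, was lower, a gene named after its value was seen. The list's median was 1.26, and 0.98 with values under zero signal raised to it. Prf1, the pore-forming perforin, already stood at 11.40, 11.80 and 11.58 in naive cells and read 13.20, 13.11 and 13.22 in effector cells, a rise of 1.59. Cst7, an inhibitor of granule cathepsins, rose by 1.42. Sytl2, a Rab27 effector that tethers granules to the membrane, went from 8.55, 8.07 and 8.64 to 11.91, 12.01 and 11.97 (3.55, adjusted p = 2.37e-06), and Sytl3 (2.50) and the fusion protein Vamp8 (1.63) rose. In all 7 of 21 exocytosis genes were higher and 2 lower, Rab37 (-0.62) and Vti1b (-0.46), which were named after their values were seen, and only 4 were higher without effector replicate 1. Of 38 serpins, a family that includes inhibitors of granule proteases, 7 (18.4%) were higher and 2 (5.26%) lower, with a median of 0.02. The share of rises was near that over all genes, where 14.5% were higher and 16.3% lower, so the family did not rise as a list. Only 1 serpin was lower without naive replicate 2 or 3 or any effector array. The rises included Serpinb6b (3.92) and Serpinb9, which blocks granzyme B (2.43, from 9.92, 9.70 and 9.73 to 12.03, 12.33 and 12.26). Lysosomal genes did not follow the granules as a list, with 9 higher and 13 lower of 44, and 7 lower without effector replicate 3. Within it Ctsb (1.54), Ctsd (1.08) and Lamp2 (1.26) rose, and the protease gene Ctsl (-2.46) and the acid lipase Lipa (-1.50) fell.

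Transcription factors of the 2 states moved in opposite directions. Of 25 factors associated with effector cells, 19 (76%) rose and 0 fell, with a median of 1.60. Of 25 associated with naive cells, 14 (56%) fell and 4 rose, with a median of -0.89, and 2 of those rises, Eomes and Tox, stand in both lists. Irf4, which responds to the strength of antigen receptor signals, went from 7.17, 6.99 and 6.85 to 10.65, 10.39 and 10.53 (3.52, adjusted p = 0.000183). Prdm1, the repressor Blimp-1, went from 7.26, 7.51 and 7.10 to 10.78, 10.62 and 10.69 (3.41, adjusted p = 1.47e-06), and Irf8 rose by 3.22. Bach2, which represses effector genes in resting T cells and is known to oppose Blimp-1, went the other way from 10.63, 10.81 and 10.58 to 7.86, 8.10 and 7.95 (-2.70, adjusted p = 1.14e-06). Among the quiescence factors Foxp1 (-2.30), the chromatin organiser Satb1 (-2.28) and Foxo1 (-1.59) fell, each without overlap between groups. Of 37 early response genes 11 (29.7%) were higher and 7 (18.9%) lower, beside 14.5% and 16.3% among all genes. Those that rose included Ier3 (3.57) and the nuclear receptors Nr4a2 (3.51) and Nr4a1 (1.96), which antigen receptor signals induce. The transcript of Ets1, a factor abundant in all T cells, differed by -0.01, with a 95% interval of -0.18 to 0.17.

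Receptors and adhesion molecules of migration changed in both directions. Of 30 chemoattractant receptors 12 (40%) were higher and 6 (20%) lower, beside 14.5% and 16.3% among all genes. The inflammatory chemokine receptor Ccr2 rose by 3.43, from 7.07, 7.01 and 7.43 to 10.55, 10.73 and 10.53, the prostaglandin E2 receptor Ptger2 by 3.31 and the fractalkine receptor Cx3cr1 by 2.25. Of 29 integrins and adhesion molecules 14 (48.3%) were higher and 7 (24.1%) lower. Itgb1, the shared beta-1 chain, rose by 1.97, Slamf7 by 3.27 and Alcam, a ligand of CD6, by 3.55 from a naive mean below zero signal, while CD6 itself (Cd6) fell by 1.38. Itgae, the CD103 chain that binds E-cadherin on epithelium, was instead high in naive cells at 10.67, 11.46 and 11.15 and low in effector cells at 8.55, 7.83 and 8.17 (-2.91, adjusted p = 4.66e-05). Icam2 also fell, by 1.68. Sema7a, a membrane-bound semaphorin, rose by 4.16 from near zero signal.

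Enzymes that build surface glycans included some of the steepest falls. St6gal1, which adds alpha-2,6-linked sialic acid, was among the brightest genes of naive cells at 14.11, 14.05 and 14.06 and read 10.40, 10.26 and 10.27 in effector cells, a difference of -3.76 (adjusted p = 2.51e-07). The ganglioside sialyltransferase St8sia1 fell by 3.31. Chst2, a sulfotransferase of selectin ligands, rose by 1.83. The list of 34 such enzymes held 11 higher and 6 lower, but 7 were higher without effector replicate 2 or without effector replicate 3. For the actin cytoskeleton 28 of 59 genes (47.5%) were higher and 8 lower, and 20 were higher without effector replicate 3. Coro2a (2.38), the capping protein Capg (2.06), the motor Myo1f (1.68) and the intermediate filament Vim (1.40) rose. Actn1, a crosslinker of actin filaments, fell from 14.17, 13.99 and 14.06 to 11.36, 11.56 and 11.51 (-2.60, adjusted p = 1.47e-06), and Evl, a promoter of filament elongation, by 1.64.

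Receptors that restrain T cells and receptors that boost them rose side by side. Of 19 inhibitory and exhaustion-associated genes 15 (78.9%) were higher and 1 was lower, with a median of 2.60. Cd160 rose by 3.55, from 9.06, 8.53 and 8.95 to 12.23, 12.55 and 12.41, and Entpd1, the ectoenzyme CD39 that degrades extracellular ATP, by 3.41. The gene called lower was Vsir, which encodes the checkpoint protein VISTA and read 13.33, 13.51 and 13.39 against 11.80, 12.09 and 11.99 (-1.45); it was picked after its value was seen. Of 20 costimulatory receptors 11 (55%) rose, including Tnfrsf4 (OX40, 2.18) and Icos (1.26), and Tnfrsf13b fell by 0.97. Of 7 TNF family ligands whose symbols begin with Tnfsf, 5 rose and 0 fell. Ligands of the family with other symbols were not in this list, and they included genes called lower and genes called higher. Tnfsf13b, the B cell survival factor BAFF, was at 5.64 on every naive array and at 8.71, 8.55 and 8.56 on the effector arrays, at least 3.90-fold higher. Tnfsf9 (1.87), Tnfsf14 (1.62), the death ligand Tnfsf10 (1.42) and Tnfsf4 (1.38) were the other risers.

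Genes of antigen receptor signalling moved both ways. The receptor complex and proximal kinases held 8 higher and 9 lower of 35, and the rises fell to 3 without effector replicate 1, to 4 without effector replicate 2 or 3, and to 5 without naive replicate 3. Fyn, a Src family kinase, rose by 1.09, and the adaptor Trat1 (-1.63) fell. Negative regulators of these signals were higher for 17 and lower for 8 of 42. Risers included the phosphatase Ptpn13 (3.51, from a naive mean below zero signal), the adaptor Sh2d2a (2.63, from 9.81, 9.73 and 9.62 to 12.43, 12.25 and 12.36) and Spry2, a feedback inhibitor of Ras signals (2.15). Dgka, which removes diacylglycerol and is linked to unresponsiveness, fell from 13.33, 13.66 and 13.52 to 11.35, 11.60 and 11.53 (-2.01), and the phosphatase Ptpn6 fell by 1.18. Among regulators of G protein signalling, Rgs16 (5.01) and Rgs1 (3.51) rose where Rgs10 fell, in a family of 17 with 4 higher and 5 lower.

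Several signalling lists held many falls and few rises. In the TGF-beta and SMAD list 10 of 24 genes (41.7%) fell and 0 rose, with a median of -0.48, and 1 rose without postmitotic replicate 3. Smad7, the inhibitory SMAD, read 11.53, 11.53 and 11.54 in naive and 9.50, 9.85 and 9.61 in effector cells (-1.88, adjusted p = 6.06e-06). The receptors Tgfbr2 (-1.52) and Acvr1b (-3.03, from 11.63, 11.12 and 11.33 to 8.28, 8.36 and 8.34), the mediators Smad1 (-2.32) and Smad4 (-1.82) and the corepressor Ski (-2.35) fell too, so the falls included activating and inhibiting members. In the PI3K, Akt and mTOR list 15 of 35 (42.9%) fell and 4 rose, and only 2 rose when any effector array, naive replicate 1, naive replicate 3 or postmitotic replicate 2 was left out. Its largest falls were the kinase Sgk3 (-2.45) and Sesn3, a stress-induced inhibitor of mTORC1 (-1.92). Wnt and Notch genes were lower for 13 and higher for 2 of 35, including Dtx1, a Notch-induced ligase (-2.12), and Axin2, a feedback target of Wnt signals (-1.36). The rises there came to 1 without effector replicate 1 or 2 and to 0 without effector replicate 3, naive replicate 2 or naive replicate 3. Cytokine receptors outside the common gamma chain family were lower for 10 (26.3%) and higher for 6 (15.8%) of 38. The shares among all genes were 16.3% and 14.5%, so rises were not few in this list. The shared signalling chain Il6st (-2.11) and Il17ra (-1.91) fell, and Il10ra (2.72) and Il18rap (2.06) rose.

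Metabolic lists held rises and falls together, beside 14.5% rises and 16.3% falls among all genes. Of 20 glycolysis genes 8 (40%) rose and 3 (15%) fell. Triose phosphate isomerase (Tpi1) went from 11.06, 10.58 and 10.74 to 12.78, 12.57 and 12.72 (1.90), with pyruvate kinase Pkm at 1.13. Pdk1, which keeps pyruvate out of mitochondria by inhibiting pyruvate dehydrogenase, was lower, from 13.36, 13.21 and 13.16 to 11, 11.18 and 11.22 (-2.11, adjusted p = 5.03e-06). Lactate dehydrogenase Ldhb (-1.15) and the mitochondrial NADP-dependent isocitrate dehydrogenase Idh2 (-1.93) also fell. In fatty acid oxidation 8 (29.6%) of 27 rose and 3 (11.1%) fell, and the long-chain dehydrogenase Acadl (2.40) and the electron carrier Etfb (1.64) led. Complex I genes were higher for 13 (31.7%) and lower for 5 (12.2%) of 41. The rises came to 7 without naive replicate 3, 8 without effector replicate 3 and 9 without effector replicate 2. The falls came to 2 without effector replicate 3 and 3 without effector replicate 2. Of 17 ATP synthase subunits 7 rose and 0 fell. The redox list held 13 (34.2%) higher and 8 (21.1%) lower of 38. Thioredoxin (Txn1) was bright and nearly uniform within groups, at 13.42, 13.41 and 13.36 against 15.41, 15.43 and 15.41, a rise of 2.02, with Gsto1 at 2.34 and the secretory pathway peroxidase Prdx4 at 1.77. Selenop, a selenium carrier, fell by 3.22. The cholesterol exporter Abca1 fell by 2.14.

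Genes of cell death held more rises than the share over all genes, while their falls were near that share. Among all genes 14.5% rose and 16.3% fell. Of 39 caspases and death receptor genes 14 (35.9%) rose and 7 (17.9%) fell, and the kinase Dapk2 rose by 3.25. In the Bcl2 family 6 (28.6%) of 21 rose and 3 (14.3%) fell. The falls came to 0 without effector replicate 2 and to 1 without effector replicate 3 or any naive array. Pmaip1, the p53-inducible killer Noxa, went from 8.67, 8.65 and 8.80 to 11.77, 12.04 and 11.94 (3.21, adjusted p = 1.58e-06). The killer genes Bcl2l11 (Bim, 1.18) and Bax (0.88) rose less.

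Interferon-responsive genes did not move as a single group. Of 57 genes 24 (42.1%) rose and 8 (14%) fell, beside 14.5% and 16.3% among all genes. Their median was 0.24, and 17 rose without effector replicate 3. Ifitm1, a membrane protein that blocks virus entry, went from 7.21, 7.69 and 6.73 to 10.72, 10.03 and 10.38 (3.17, adjusted p = 5.26e-05). Against this, 6 of 10 guanylate-binding and immunity-related GTPases, typically induced by interferon gamma for defence inside infected cells, were lower and 3 were higher, with a median of -0.67. Tgtp1 read 14.42, 14.73 and 14.53 in naive and 13.16, 12.90 and 13.08 in effector cells (-1.51, adjusted p = 3.14e-05), although a near-identical copy of this gene exists. Gbp2b (-0.99), Iigp1 (-0.98), Gbp2 (-0.92), Irgm2 (-0.73) and Igtp (-0.61) fell with it, and Gbp8 (2.18) and Gbp3 (1.17) rose. For comparison, the postmitotic cells of the same kind of recipients had means of 13.11 for Gbp2b, 13.09 for Gbp2 and 12.43 for Iigp1, beside naive means of 12.17, 12.06 and 10.41 and effector means of 11.18, 11.14 and 9.43. Those postmitotic values are set beside the others without a test here.

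Chromatin and RNA processing genes also moved both ways. Of 52 polycomb, DNA methylation and chromatin genes 12 rose and 16 fell, and 7 rose without effector replicate 2. Ezh2, the methyltransferase of polycomb, went from 8.87, 10.00 and 9.48 to 12.39, 12.10 and 12.25 (2.80, adjusted p = 7.77e-05). The remodelling ATPase Smarca2 (-1.29) and the demethylase Kdm5b (-1.26) fell. Among zinc finger genes named Zfp, most of unknown function, 53 of 180 (29.4%) were lower and 7 higher, with 37 to 53 lower when each array was left out in turn. The rises came to 4 without effector replicate 2, 3 without naive replicate 3 and 2 without effector replicate 3. Of 50 splicing factors 13 rose and 6 fell, and the falls came to 3 without effector replicate 1, effector replicate 3 or naive replicate 3 and to 10 without naive replicate 1. Hnrnpll, which directs CD45 to its short isoform in activated T cells, went from 10.64, 11.12 and 10.82 to 12.22, 12.20 and 12.19 (1.34), Mbnl3 rose by 1.33 and Rbm5 fell by 0.95. In the circadian clock list 6 of 18 fell and 3 rose, with Dbp, an output factor of the clock, at -1.86 and the repressor Nr1d2 at -1.58. The hour at which cells were taken is not stated in the labels.

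Some genes have probe sets that disagree. When every single-gene probe set was tested, 5562 of 21259 were called, and 909 genes had at least 2 called probe sets, which shared a direction in 860 and opposed each other in 49. Ppp2r5c, a regulatory subunit of protein phosphatase 2A, had probe sets at 0.77 and 0.78 and another at -0.75. Hnrnpdl, an RNA-binding protein known to regulate its own splicing, had probe sets at -1.10 and -0.59 and others at 0.44 and 0.83, while its brightest probe set, at 0.02, was not called. Others were Prep (0.71 and -0.82), Pdxk (-0.83 and 0.63), Nans (0.71 and -0.64) and Nus1 (-0.74 and 0.62). Which transcript ends each probe set reads was not tested.

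Several abundant genes of the lists showed no detected difference with narrow limits. Rps3 differed by 0.03 (95% interval -0.14 to 0.21), Rpl13a by 0.11 (-0.07 to 0.28) and Tram1, of the translocation channel of the endoplasmic reticulum, by 0.07 (-0.11 to 0.24). The naive means were 15.96 for Rps3 and 16.29 for Rpl13a, near the top of the scale, and whether differences are compressed there was not tested. Tram1 had means of 13.34 and 13.41. For Rpl13a and Tram1 all effector arrays still lay above all naive arrays, as for 20.4% of all genes. Rpl13a read 16.39 to 16.41 in effector and 16.26 to 16.31 in naive cells. Tram1 read 13.38 to 13.42 against 13.32 to 13.37.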

How the data were processed

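Per the file headers and the deposited readme, the authors summarised each probe set of a Mouse430A 2.0 scan by a trimmed mean, quantile-normalized the arrays to that of naive replicate 2, and deposited log2 values after adding an offset of 100 in all. The readme names no software version. The value table of the series matrix matched within 5e-09. Per the labels' protocols, total RNA (600 ng) was amplified by repeated reverse transcription and in vitro transcription.

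Of 22690 probe sets, 64 were controls, 21259 named 1 gene, 826 several and 541 none. Current symbols came from RefSeq (GRCm38.p6) by Entrez number for 20752 probe sets, and 507 kept the deposited symbol. The probe set with the highest mean over 9 arrays stood for each of 5088 genes with several. Cd8a had no single-gene probe set.

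Differences were fitted with limma 3.58.1 (R 4.3.3; lmFit and eBayes, with 6 residual and 2.14 prior degrees of freedom) on the 9 arrays, with 1 mean for each group and no block, and p-values were Benjamini-Hochberg adjusted over 13152 genes. The script was tested on simulated data. Folds are ratios on the offset scale, and where all arrays of the dimmer group were at or below zero signal a fold is a lower bound against zero signal. With 3 arrays per group the number of arrays limits the precision, and arrays are separate pools of mice per the labels. The members and lists were chosen with earlier results of these data known, so list counts are descriptions beside the share over all genes. Named genes were the 30 largest non-overlapping rises and falls, up to 8 called members per list, up to 10 genes with opposed probe sets, label checks and up to 6 precise genes without a call. Alternatives covered the probe set rule, the arrays fitted, the replicate block, low values, scaling, moderation, thresholds and leaving out each array. Some results on single genes are not reported here.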

Additional observations from a re-analysis of the deposited data

How the results depend on the processing

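Alternatives changed the probe set rule, the arrays fitted, low values, scaling or moderation. Apart from single arrays left out, given below, the genes called lay between 3630 (mean of a gene's probe sets) and 4557 (variance prior with trend and robust), against 4052. With every probe set tested on its own, 5562 of 21259 probe sets were called. Testing the fold against 1.5 left 1037 genes, 616 higher and 421 lower, and the authors' criteria (unadjusted p under 0.01 and 1.5-fold) gave 2420, 1200 higher and 1220 lower. Without each array in turn the calls ranged from 3133 (without effector replicate 3) to 4153, the rises from 1485 to 1933, the falls from 1648 to 2220, and those of at least 2-fold from 724 to 778 higher and from 501 to 538 lower. Subtracting array medians moved the share of rises among calls from 47% to 44.1%. Single genes were followed under every alternative except the authors' criteria. Of 653 named genes 351 kept direction and call under all of those and 302 lost the call under at least 1. With the mean of the gene's probe sets, B2m turned from 0.28 to -0.16 (adjusted p = 0.311) and Atp5c1 from 0.39 to -0.14 (adjusted p = 0.633), and Pdia6, Psma1 and Txnip lost their calls; the cause was not tested. Under that setting falls dropped in several lists: 7 to 2 for caspases and death receptors, 3 to 1 for fatty acid oxidation, 8 to 5 for redox genes, 13 to 8 for Wnt and Notch genes and 16 to 10 for chromatin genes. With the trended robust prior splicing factors held 20 rises and 10 falls, and the antigen receptor list 14 falls.

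Groups share replicate numbers in the labels. Deviations from the group means had correlations of 0.0478, 0.0146 and 0.0146 between same-numbered naive and effector arrays. With 3 arrays per group these values cannot decide whether the numbers pair samples. Pairing of effector with postmitotic arrays, which come from the same kind of recipients, was not tested. With the replicate block 3830 genes were called, 1806 higher and 2024 lower. Dim genes limit the depth: 303 genes were at or below zero signal on every array of both groups.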
